A study of Mus musculus with 18 samples.

Results

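Oct4 (Pou5f1), Sox2, Sall4, Lin28a, Cripto (Tdgf1), Rex1 (Zfp42) and Utf1 are 7 genes by which mouse embryonic stem cells are recognised. They were taken by name from the 54446 genes counted in every library, and all 7 passed the filter on low counts in both experiments. The study measured RNA of the nuclear fraction in 18 libraries, in 9 groups of 2. All cells were C57BL/6 mouse embryonic stem cells grown with LIF, CHIR99021 and PD0325901. In the first experiment, cells labelled Ythdc1_Control and cells labelled Ythdc1_cKO (conditional knockout) were collected after 0, 3 or 6 h of actinomycin D at 5 µg/ml, which stops transcription. In the second experiment, Mettl3_Control cells and knockout lines labelled Mettl3_KO1 and Mettl3_KO2 were collected at 0 h of the drug. How each knockout was made, and whether the 2 libraries of a group came from separate cultures, is not stated in the labels, so p-values measure only the spread between these libraries.

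OCT4 and SOX2 bind DNA together and, with the zinc finger protein SALL4, hold the transcription programme of pluripotent cells, in which REX1 and UTF1 are among the known target genes. CRIPTO is the membrane coreceptor for the growth factor NODAL. LIN28A is an RNA-binding protein that blocks the maturation of let-7 microRNAs. METTL3 is the catalytic subunit of the enzyme that writes N6-methyladenosine (m6A) into RNA, and YTHDC1 is the reader of that mark in the nucleus.

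Levels are given as read counts scaled to a common library size (CPM) after TMM scaling, which sets the typical gene to the same level in every library. Gene reads ranged from 4950973 to 30989044 per library. Reads that the counting assigned to no gene feature made up 18.05% to 53.6% of the uniquely placed reads. Whether these include reads within introns of the genes was not tested. Each library also held between 3932 and 33396 reads of ERCC spike-in RNA, and scaling to these gives levels relative to the added RNA. On the same unit without TMM, spike-ins stood at 272 to 277 CPM of gene reads in the libraries labelled cKO at 3 h and 772 to 1889 in the other Ythdc1 libraries, so spike-in values at 3 h in these cells stand apart. The labels were checked on the targeted genes. Ythdc1 was at 145.1 and 132.0 CPM in control and 143.2 and 120.4 CPM in cells labelled cKO at 0 h, and at 51.9 and 50.3 against 14.5 and 15.3 CPM at 3 h. Mettl3 was at 36.6 and 31.9 CPM in its control, 32.6 and 31.3 in KO1 and 22.7 and 22.1 in KO2. The RNA therefore did not mark the cKO libraries at 0 h or the KO1 libraries, and these groups are named here by their labels. The summed level of 10 other embryonic stem cell markers lay between 2691 and 3748 CPM in all 18 libraries, while the sum over 7 primitive endoderm markers reached at most 18.4 CPM, over 6 mesoderm markers 34.9 CPM, over 6 trophoblast markers 51.7 CPM, over 6 neuroectoderm markers 131.8 CPM and over 10 fibroblast markers 573.4 CPM, the last in KO2.

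Per kb of merged exons, Tdgf1 was the most abundant of the 7 RNAs in the Ythdc1 control at 0 h, at 258.9 CPM per kb, followed by Sall4 at 106.2 and Pou5f1 at 103.0. Sox2 stood at 59.4, Zfp42 at 30.5, Utf1 at 18.7 and Lin28a lowest at 8.49 CPM per kb. With the length of the longest transcript in place of merged exons, Pou5f1 (170.1) passed Sall4 (115.9). In the Mettl3 control the order was headed by Zfp42 at 232.5 CPM per kb and Tdgf1 at 205.9, and Lin28a was again lowest at 16.7. With the longest transcript, Tdgf1 (279.5) passed Zfp42 (238.1) there.

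The sites at which m6A could be written were looked for as GGACT, a core form of the sequence the writer recognises, on the sense strand only of each gene's longest transcript in GENCODE M21 (mm10). The windows of Lin28a, Sox2 and Pou5f1 are shown, chosen after their values were seen, because the results turn on them. Lin28a differed most between genotypes without drug with TMM scaling. Sox2 and Pou5f1 lay farthest apart in control cells after 6 h of actinomycin D. The match is in capitals, and 2 of the Sox2 windows overlap.
Lin28a 5′ UTR (chr4:134018791-134018815, minus strand): ctttgcctccGGACTtctctggggc
Lin28a 3′ UTR (chr4:134005701-134005725, minus strand): tctggggaagGGACTcccaggagca
Lin28a 3′ UTR (chr4:134004704-134004728, minus strand): catgaggcagGGACTcaactcctta
Lin28a 3′ UTR (chr4:134004402-134004426, minus strand): ggcctttgtaGGACTtttactgtct
Lin28a 3′ UTR (chr4:134003725-134003749, minus strand): accagaaaagGGACTatgaatgtac
Sox2 3′ UTR (chr3:34651371-34651395, plus strand): tgtgagggctGGACTgcgaactgga
Sox2 3′ UTR (chr3:34651583-34651607, plus strand): agagatcttgGGACTtctttttggg
Sox2 3′ UTR (chr3:34651598-34651622, plus strand): tctttttgggGGACTatttttgtac
Pou5f1 coding (chr17:35506315-35506339, plus strand): acctcaggttGGACTgggcctagtc
Lin28a held 5 matches, or 1.43 per kb, and 28.1% of 21901 protein-coding genes had as many or more per kb. Sox2 held 3 matches (1.46 per kb, reached by 26.8% of genes), all in the 3′ UTR, and Pou5f1 held 1 match (0.73 per kb, reached by 65.8%). The other 4 genes held 5 (Sall4), 3 (Tdgf1), 2 (Zfp42) and 2 (Utf1). The median over protein-coding genes was 1.01 per kb, 87.6% of them held at least 1 match, and the 7 genes ranged from 0.73 to 1.63. A match describes the letters only, and methylation was not measured in these libraries.

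Without drug, 6 of the 7 genes were lower in cells labelled cKO than in control, and Sox2 did not pass the test. Lin28a differed most (3.30-fold), while Sall4, Utf1, Pou5f1, Tdgf1 and Zfp42 were lower by 1.29-fold to 1.52-fold. The share of all 17900 genes called lower was 15.8%, and 29.4% were called in either direction (edgeR, adjusted p below 0.05). The median over the 7 genes was -0.43 on the log2 scale, beside 0.01 over all genes. Fewer cells expressing a gene and less RNA per cell cannot be told apart in these bulk libraries.

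Pou5f1 (chr17:35506018-35510772), the gene of OCT4, was at 225.9 and 237.4 CPM in control and 166.1 and 178.7 CPM in cells labelled cKO. Both control libraries were higher, and the log2 difference was -0.43 (SE 0.068, adjusted p = 1.09e-05). Its partner Sox2 (chr3:34650405-34652461), a gene of a single exon, was at 126.4 and 117.8 CPM in control and 136.9 and 119.8 CPM in cells labelled cKO. These libraries overlapped, with a log2 difference of 0.07 (SE 0.086, adjusted p = 0.575). Sall4 (chr2:168748332-168767943) was at 570.2 and 605.6 CPM in control and 376.1 and 395.8 CPM in cells labelled cKO, with no overlap and a log2 difference of -0.61 (SE 0.049, adjusted p = 2.58e-12).

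Lin28a (chr4:134003330-134018841), the let-7 antagonist, was at 33.6 and 34.3 CPM in control and at 10.96 and 9.61 CPM in cells labelled cKO. Every control library was above every library labelled cKO, at each of the 3 times, and the log2 difference at 0 h was -1.72 (SE 0.14, adjusted p = 3.3e-12). These levels rest on 310 and 449 Lin28a reads in control and 101 and 86 reads in cells labelled cKO. The NODAL coreceptor gene Tdgf1 (chr9:110939603-110946158) was at 694.9 and 662.8 CPM against 528.6 and 503.6 CPM, a log2 difference of -0.40 (SE 0.047, adjusted p = 1.71e-08).

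The REX1 gene Zfp42 (chr8:43295063-43306980) was at 58.9 and 55.7 CPM in control and 46.3 and 42.4 CPM in cells labelled cKO, a log2 difference of -0.37 (SE 0.094, adjusted p = 0.00269). Utf1 (chr7:139943789-139945112), which encodes a chromatin-bound protein of pluripotent cells, was at 22.3 and 23.4 CPM against 16.5 and 15.5 CPM, a log2 difference of -0.52 (SE 0.14, adjusted p = 0.00509). Neither gene's groups overlapped. The Utf1 call was lost when the second control library at 0 h was left out (adjusted p = 0.0545). With spike-in scaling, all 7 genes were called lower, Sox2 among them (log2 -0.30, adjusted p = 0.00489). That scaling moved the median of all genes to -0.35, and 42.3% of genes were called lower and 4.41% higher under it. The summed level of the 10 other stem cell markers was 2691 to 2761 CPM in cells labelled cKO and 3292 to 3338 CPM in control, that of 6 trophoblast markers 20.9 to 23.0 against 35.4 to 36.5 CPM, and that of 10 fibroblast markers 40.9 to 43.1 against 24.5 to 28.3 CPM. Of the fibroblast markers, Dcn had no read in control and Lum none in cells labelled cKO. Of these 10 markers, 5 were under 1 CPM in control and 4 in cells labelled cKO. The sum over 6 neuroectoderm markers was 46.7 to 47.4 CPM in cells labelled cKO and 59.9 to 61.1 CPM in control. Over 7 primitive endoderm markers it was 13.9 to 14.7 against 11.5 to 11.8 CPM, with Foxa2 unread in both groups. In each group 4 of the neuroectoderm and 3 of the primitive endoderm markers were under 1 CPM. Of the trophoblast markers, 2 were under 1 CPM in control and 3 in cells labelled cKO. The mesoderm sums of the groups overlapped. The part of these shifts in the results was not tested.

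**Figure D1:**
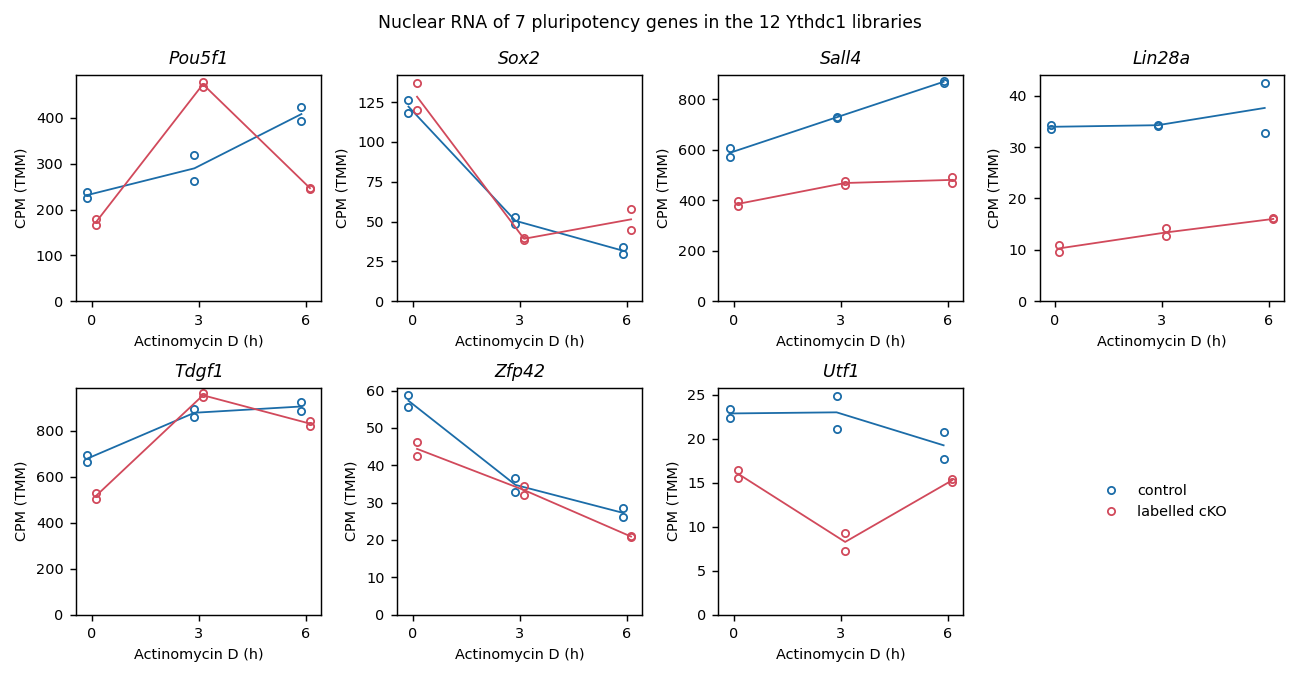
Level of each of the 7 genes in CPM after TMM scaling (vertical axis, from 0) against hours of actinomycin D (horizontal axis) in the 12 Ythdc1 libraries. Each circle is a library, lines join group means, blue is control and red is labelled cKO. Sall4, Lin28a and Utf1 lie lower, without overlap, in the libraries labelled cKO at each time. Sox2 and Zfp42 lie lower at 3 and 6 h than at 0 h in both. On the spike-in scale the fall of Sox2 and Zfp42 does not hold for cells labelled cKO at 3 h (0.12 and 1.42 on the log2 scale against 0 h).

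After transcription was stopped, 5 of the 7 RNAs changed in control relative to the typical nuclear RNA, 3 keeping a larger share and 2 a smaller one. In control cells over 6 h, Sox2 and Zfp42 were called lower under both scalings, Pou5f1, Sall4 and Tdgf1 were called higher with TMM but not with spike-in scaling, and Lin28a and Utf1 did not pass the test with TMM. In that comparison 64.8% of all genes were called, 33.1% higher and 31.7% lower (26.3% and 38.2% with scaling by library size), and the median log2 change was 0.14 over the 7 genes and 0.03 over all genes. A rise on this scale is relative to the other RNAs in the library. With spike-in scaling the median of all genes moved to -0.88, 63.0% of genes were called lower and 7.33% higher, and 6 of the 7 genes were called lower, with Pou5f1 not passing the test.

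Sox2 was at 126.4 and 117.8 CPM at 0 h, 52.7 and 48.2 CPM at 3 h and 33.9 and 29.7 CPM at 6 h in control cells. The libraries of the 3 times did not overlap, and the level at 6 h was 3.85-fold lower than at 0 h (log2 -1.94, SE 0.098, adjusted p = 3.04e-18). Relative to spike-ins, 13.8% of the 0 h level was left at 6 h. Zfp42 was at 58.9 and 55.7 CPM at 0 h, 36.6 and 32.9 CPM at 3 h and 28.5 and 26.1 CPM at 6 h. Its libraries too did not overlap between times, and it fell by 1.07 on the log2 scale over 6 h (SE 0.099, adjusted p = 4.67e-12), and 25.2% was left relative to spike-ins.

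Pou5f1 was at 225.9 and 237.4 CPM at 0 h, 261.8 and 318.1 CPM at 3 h and 393.2 and 423.5 CPM at 6 h in control cells. Its share of the RNA was thus higher at 6 h than at 0 h by 0.82 on the log2 scale (SE 0.067, adjusted p = 2.95e-12), while relative to spike-ins 93.3% of the 0 h level was left (log2 -0.10, adjusted p = 0.221). Sall4 went from 570.2 and 605.6 CPM to 865.9 and 873.7 CPM at 6 h, a log2 change of 0.56 (SE 0.049, adjusted p = 7.33e-13) that became -0.35 with spike-in scaling, with 78.3% left. Tdgf1 went from 694.9 and 662.8 CPM to 887.2 and 923.7 CPM, a log2 change of 0.42 (SE 0.046, adjusted p = 5.15e-10) that became -0.50 with spike-in scaling, with 70.7% left.

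Lin28a was at 33.6 and 34.3 CPM at 0 h, 34.3 and 34.2 CPM at 3 h and 42.5 and 32.8 CPM at 6 h in control cells. Its libraries overlapped between times, and the 6 h change of 0.14 did not pass (SE 0.116, adjusted p = 0.297; 58.3% left relative to spike-ins), though it was called without the second control library at 6 h (0.32, adjusted p = 0.0321). Utf1 was at 22.3 and 23.4 CPM at 0 h, 21.1 and 24.9 CPM at 3 h and 17.7 and 20.8 CPM at 6 h, a 6 h change of -0.24 that did not pass (SE 0.14, adjusted p = 0.117), with 44.6% left relative to spike-ins. The Utf1 change was called with scaling by library size (-0.44, adjusted p = 0.00519) and with a minimum of 50 reads in 2 libraries (-0.32, adjusted p = 0.0345). After 3 h in control cells, where 56.5% of all genes were called and 27.1% were called lower, the calls were the same 3 higher and 2 lower genes as at 6 h. Their log2 changes were 0.32 for Pou5f1, 0.31 for Sall4, 0.37 for Tdgf1, -1.27 for Sox2 and -0.72 for Zfp42. With spike-in scaling the first 3 of these became -0.20, -0.22 and -0.15, and all 7 genes were called lower, beside 51.1% of all genes.

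In cells labelled cKO, 4 of the 7 genes were called higher and 2 lower over 6 h with TMM, where 60.9% of all genes were called (29.6% higher), and none higher and 6 lower with spike-in scaling, where 3.28% of all genes were called higher and 68.4% lower. Sox2 went from 136.9 and 119.8 CPM at 0 h to 39.7 and 38.7 CPM at 3 h and 44.8 and 57.9 CPM at 6 h. Its log2 change over 6 h was -1.28 (SE 0.093) beside -1.94 in control, and the difference of 0.67 passed the test (SE 0.14, adjusted p = 0.000424). Relative to spike-ins 20.99% of Sox2 was left in these cells beside 13.8% in control, a difference of 0.61 (adjusted p = 0.00115). The call of the difference was lost without the second library labelled cKO at 6 h (0.43, adjusted p = 0.0583).

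Across the 7 genes, 4 differed in their 6 h change between cells labelled cKO and control, 2 in each direction with TMM, beside 9.77% of all genes called higher, 9.35% called lower and 19.1% called in all. The split depended on the setting. Scaling by library size gave 3 higher (Sox2, Tdgf1 and Lin28a) and 0 lower, beside 16.4% of all genes higher and 5.55% lower. The count was also 3 and 0 with no filter on low counts (beside 7.35% and 2.42% of all genes) and in 1 fit of all 18 libraries (beside 11.9% and 6.55%). Tdgf1, at 818.8 and 842.8 CPM at 6 h in cells labelled cKO, changed by 0.69 there against 0.42 in control, a difference of 0.27 (SE 0.066, adjusted p = 0.00246). Pou5f1, at 245.6 and 247.8 CPM, changed by 0.52 there against 0.82 in control, a difference of -0.30 (SE 0.095, adjusted p = 0.0247). Sall4, at 470.0 and 491.9 CPM, changed by 0.32 against 0.56, a difference of -0.25 (SE 0.069, adjusted p = 0.00908). These rises turn to falls with spike-in scaling, at -0.28 for Tdgf1, -0.45 for Pou5f1 and -0.65 for Sall4 in cells labelled cKO, while the 3 differences keep their direction at 0.22, -0.35 and -0.30. The count with that scaling was also 2 in each direction, beside 7.52% of all genes higher and 10.3% lower. The Pou5f1 difference was lost in 5 of the 8 fits that left out 1 library, with adjusted p up to 0.125, and with the DESeq2 Wald test (adjusted p = 0.0716). It was also lost at -0.15 with library size (adjusted p = 0.269), at -0.16 with no filter (adjusted p = 0.41) and at -0.22 in 1 fit of 18 libraries (adjusted p = 0.0587). The Sall4 difference was lost in 3 of 8, with adjusted p up to 0.135. It was also lost at -0.10 with library size (adjusted p = 0.324), at -0.11 with no filter (adjusted p = 0.67), at -0.16 in 1 fit of 18 libraries (adjusted p = 0.0665) and at -0.19 with only the compared libraries (adjusted p = 0.0573).

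The other 3 genes showed no called difference in their 6 h change with TMM. Lin28a in cells labelled cKO went from 10.96 and 9.61 CPM to 12.6 and 14.2 CPM at 3 h and 16.1 and 15.9 CPM at 6 h. It was higher at 6 h than at 0 h by 0.63 on the log2 scale (SE 0.156, adjusted p = 0.000618), or -0.34 with spike-in scaling (adjusted p = 0.0633), and its difference from the control change was 0.50 (SE 0.195, adjusted p = 0.0703). That difference passed the test with library size (0.64, adjusted p = 0.0152), with no filter (0.64, adjusted p = 0.00938), in 1 fit of 18 libraries (0.58, adjusted p = 0.00895) and without the first control library at 6 h (0.69, adjusted p = 0.0111). Zfp42 in these cells went from 46.3 and 42.4 CPM to 32.2 and 34.6 CPM at 3 h and 20.79 and 20.998 CPM at 6 h. Its 6 h change of -1.08 (SE 0.107) stood beside -1.07 in control, with a difference of -0.01 (SE 0.146, adjusted p = 0.968), and 24.0% was left relative to spike-ins beside 25.2%. Utf1 was at 16.5 and 15.5 CPM at 0 h and 15.1 and 15.5 CPM at 6 h, a change of -0.06 (SE 0.153, adjusted p = 0.748).

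**Figure D2:**
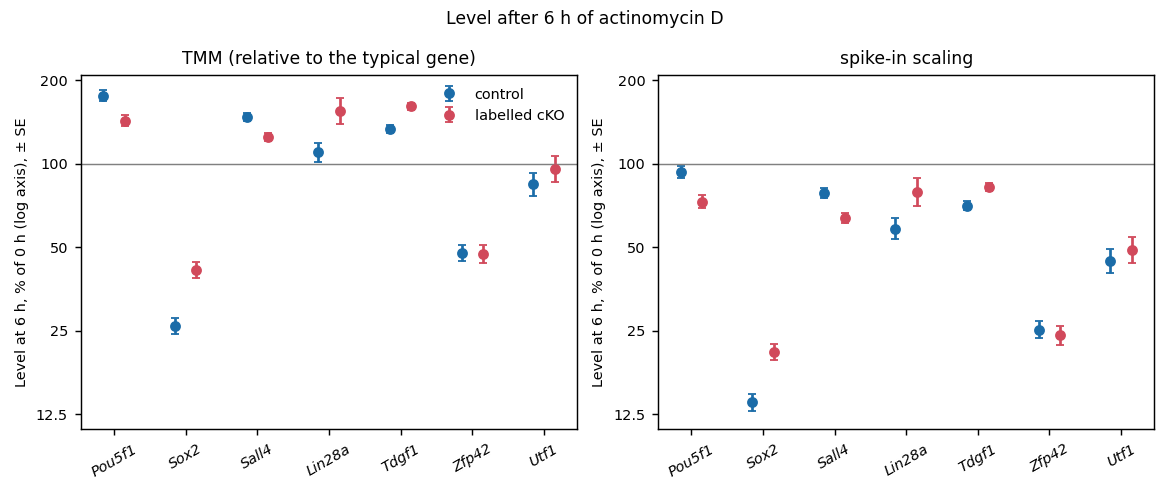
Level after 6 h of actinomycin D as a percentage of the 0 h level (log axis) for each gene, with TMM scaling on the left and spike-in scaling on the right. Points are fitted values from 2 libraries per time, bars are ± 1 SE, blue is control and red is labelled cKO. With TMM, Pou5f1, Sall4 and Tdgf1 lie above the 0 h level (grey line) and Sox2 and Zfp42 below it, while with spike-ins all points lie below it, down to 13.8% for Sox2 in control.

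At 3 h the cells labelled cKO differed from control in the change of 4 genes, 2 in each direction, beside 19.4% of all genes, with 8.39% called lower. Pou5f1 was at 467.8 and 478.9 CPM at 3 h in cells labelled cKO, above every other library of this experiment, and had changed by 1.46 on the log2 scale against 0.32 in control (difference 1.13, SE 0.095, adjusted p = 2.07e-10). Tdgf1, at 945.0 and 963.6 CPM, had changed by 0.89 against 0.37 (difference 0.52, SE 0.065, adjusted p = 2.1e-07). Utf1, at 7.2 and 9.3 CPM, was below every other library of this experiment and had changed by -0.94 against 0.01 (difference -0.95, SE 0.20, adjusted p = 0.000602). For Sox2 the difference was -0.44 (SE 0.127, adjusted p = 0.0123), and it was lost in 4 of the 8 fits without 1 library. In 1 fit of 18 libraries Zfp42 was called as well (0.32, adjusted p = 0.0136).

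These 3 h values come from the 2 libraries whose spike-in share stands apart. With spike-in scaling their all-gene median moved to 1.86 against 0 h, and the differences of Sox2 and Utf1 from control turned to 1.92 and 1.41, with all 7 genes called higher beside 89.4% of all genes. The part of the spike-in share in the 3 h results was not tested. All 7 genes were called at 3 h against 0 h in cells labelled cKO, 4 higher and 3 lower with TMM, where 59.4% of all genes were called, 29.6% higher and 29.8% lower. With spike-in scaling 6 were called higher, beside 83.8% of all genes, and none lower, beside 2.69%. With TMM, Lin28a (0.39, adjusted p = 0.0259) lost its call in 2 of the 4 fits without 1 library. Its call was also lost with DESeq2 size factors (0.34, adjusted p = 0.0534) and the DESeq2 Wald test (0.33, adjusted p = 0.112). The same held with a minimum of 50 reads in 2 libraries (0.27, adjusted p = 0.118). The counts of the 7 genes called at 0 h and at 6 h were the same when the 2 libraries labelled cKO at 3 h were left out.

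Without drug, all 7 genes were called higher than control in the line labelled KO1 under both scalings, beside 23.9% of all 21802 genes with TMM. In KO2 6 were called lower with TMM, beside 26.4% of all genes, with Utf1 not passing the test, and 5 of the 7 turned higher with spike-in scaling. Over all genes 46.1% were called in KO1 and 50.8% in KO2, where 24.4% were called higher. The median over the 7 genes was 0.33 in KO1 and -0.21 in KO2 on the log2 scale, beside -0.01 and -0.03 over all genes. Both lines were compared with the same 2 control libraries, so their values are given side by side. With spike-in scaling the all-gene median moved to 0.17 in KO1, where 34.8% of all genes were called higher, and 0.53 in KO2, where 56.7% of all genes were called higher and 6.69% lower, and in KO2 Lin28a and Zfp42 stayed lower.

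Lin28a had the widest range of the 7 genes on the log2 scale. It was at 69.8 and 63.8 CPM in control, 118.0 and 112.4 CPM in KO1 and 34.2 and 33.6 CPM in KO2. The 3 groups did not overlap, with KO1 highest and KO2 lowest. The log2 difference from control was 0.79 in KO1 (SE 0.053, adjusted p = 1.06e-22) and -0.98 in KO2 (SE 0.059, adjusted p = 3.2e-25), or -0.41 in KO2 with spike-in scaling. KO2 was 3.40-fold lower than KO1 (log2 -1.76, SE 0.057, adjusted p = 3.24e-42).

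Zfp42 was at 434.8 and 440.1 CPM in control, 483.6 and 496.5 CPM in KO1 and 273.5 and 259.9 CPM in KO2. Its log2 differences from control were 0.16 (SE 0.033, adjusted p = 1.54e-05) and -0.71 (SE 0.033, adjusted p = 5.28e-32), the second being -0.15 with spike-in scaling. The gene lies on chromosome 8, whose genes had a median log2 difference of -0.55 in KO1 and -0.44 in KO2. Relative to its chromosome, Zfp42 was 0.71 higher in KO1 and 0.27 lower in KO2. In KO2 the medians of chromosomes 17 and 4 were -0.20 and -0.17, and relative to them Pou5f1 stood at -0.19 and Lin28a at -0.80. The part of these chromosome-wide shifts in the gene values was not tested.

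Tdgf1 was at 547.3 and 532.5 CPM in control, 771.1 and 780.4 CPM in KO1 and 513.1 and 503.2 CPM in KO2. It was higher in KO1 by 0.52 on the log2 scale (SE 0.030, adjusted p = 1.99e-26). In KO2 it was -0.09 (SE 0.030, adjusted p = 0.0119), a call that was lost without the second KO2 library (adjusted p = 0.197) and in 6 of the other settings, and that turned to 0.48 with spike-in scaling. Pou5f1 was at 251.6 and 240.5 CPM in control, 304.0 and 314.8 CPM in KO1 and 189.8 and 186.6 CPM in KO2. None of these libraries overlapped between groups, and the log2 differences were 0.33 (SE 0.036, adjusted p = 7.76e-13) and -0.39 (SE 0.037, adjusted p = 2.66e-15), the latter turning to 0.18 with spike-in scaling.

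Sall4 was at 363.5 and 377.5 CPM in control, 423.1 in both KO1 libraries and 325.5 and 332.0 CPM in KO2, with log2 differences of 0.19 and -0.17, the second turning to 0.39 with spike-in scaling. Sox2 was at 99.1 and 91.8 CPM in control, 105.8 and 102.1 CPM in KO1 and 80.5 and 84.4 CPM in KO2, with log2 differences of 0.12 (adjusted p = 0.0286) and -0.21 (adjusted p = 0.000205), the second turning to 0.35 with spike-in scaling. These were small steps without overlap, and the Sox2 call in KO1 was lost in 2 of the 4 fits without 1 library. The call was also lost with the DESeq2 Wald test (adjusted p = 0.0764) and with library size (0.07, adjusted p = 0.231). The same held with 50 reads in 2 libraries (0.09, adjusted p = 0.116) and in 1 fit of 18 libraries (0.15, adjusted p = 0.0949). Utf1 was at 25.3 and 25.5 CPM in control, 33.0 and 32.6 CPM in KO1 and 23.3 and 24.1 CPM in KO2, with log2 differences of 0.37 (SE 0.079, adjusted p = 5.86e-05) and -0.10 (SE 0.083, adjusted p = 0.32), the second turning to 0.46 with spike-in scaling.

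**Figure D3:**
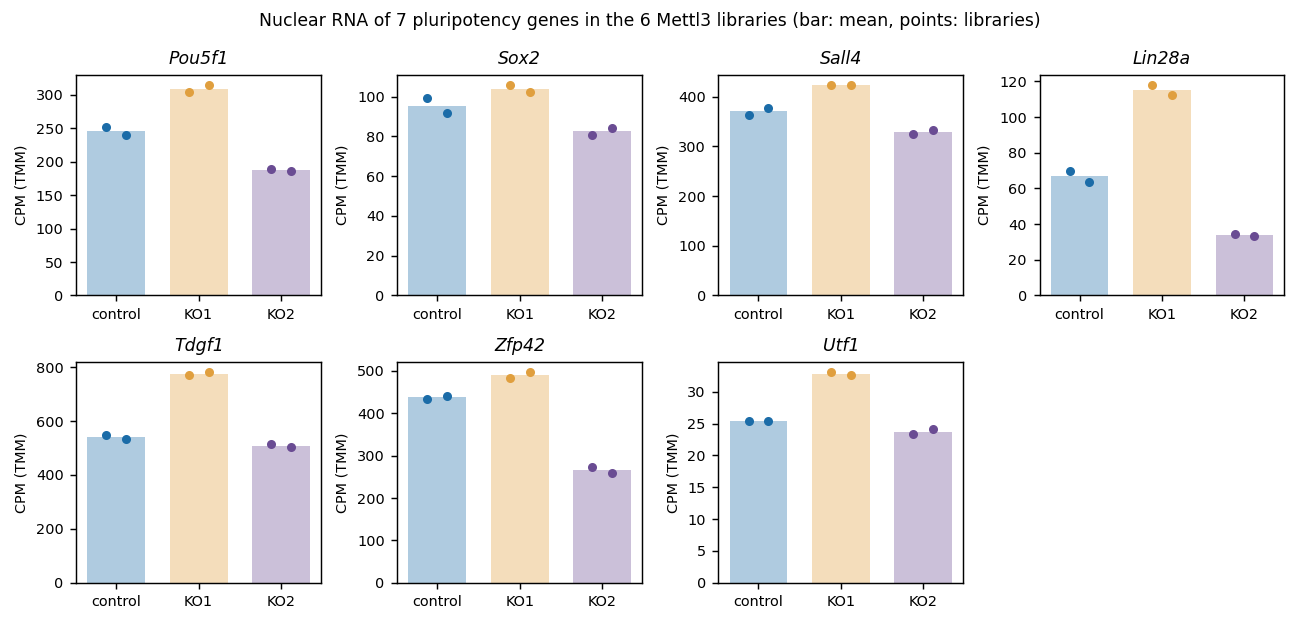
Level of each of the 7 genes in CPM after TMM scaling (vertical axis, from 0) in the Mettl3 control, KO1 and KO2 groups. Bars are means of 2 libraries and points are the libraries. With TMM scaling KO1 is the highest and KO2 the lowest group for each of the 7 genes, and the ratio between these 2 groups is largest for Lin28a (118.0 and 112.4 CPM against 34.2 and 33.6 CPM, 3.40-fold).

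Compared directly, all 7 genes were called lower in KO2 than in KO1, with TMM, beside 24.5% of all genes called lower and 46.1% called in all. After Lin28a the differences ran through Zfp42 (-0.88), Pou5f1 (-0.72), Tdgf1 (-0.61), Utf1 (-0.47), Sall4 (-0.36) and Sox2 (-0.34). With spike-in scaling, where 7.63% of all genes were called lower and 48.1% higher, 4 of the 7 were called lower, namely Lin28a (-1.38), Zfp42 (-0.50), Pou5f1 (-0.34) and Tdgf1 (-0.23). Sox2 was then at 0.04, Sall4 at 0.02 and Utf1 at -0.09. The summed level of 10 fibroblast markers was 568 to 573 CPM in KO2, 250 to 272 CPM in control and 236 to 246 CPM in KO1, with each marker read in every group. The other 10 stem cell markers summed to 2746 to 2747 CPM in KO2, 3055 to 3097 CPM in control and 3713 to 3748 CPM in KO1. In KO1, where all 7 genes were higher, the mesoderm markers summed to 32.5 to 34.9 CPM against 16.1 to 18.3 in control, the primitive endoderm markers to 9.42 to 10.9 against 16.8 to 18.4 CPM and the neuroectoderm markers to 81.2 to 89.2 against 124.1 to 131.8 CPM, with each marker read in both groups. The trophoblast markers summed to 49.4 to 51.7 against 50.7 to 51.3 CPM there. In each of these sets 2 or 3 markers were under 1 CPM in KO1 and in control. In KO2 the sums were 20.5 to 20.6 CPM for mesoderm, 114.1 to 119.7 for neuroectoderm and 44.8 to 44.9 for trophoblast. For primitive endoderm the KO2 sum was 17.3 to 18.4 CPM, with 5 of the 7 markers under 1 CPM. The part of these sums in the values of the 7 genes was not tested.

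**Figure D4:**
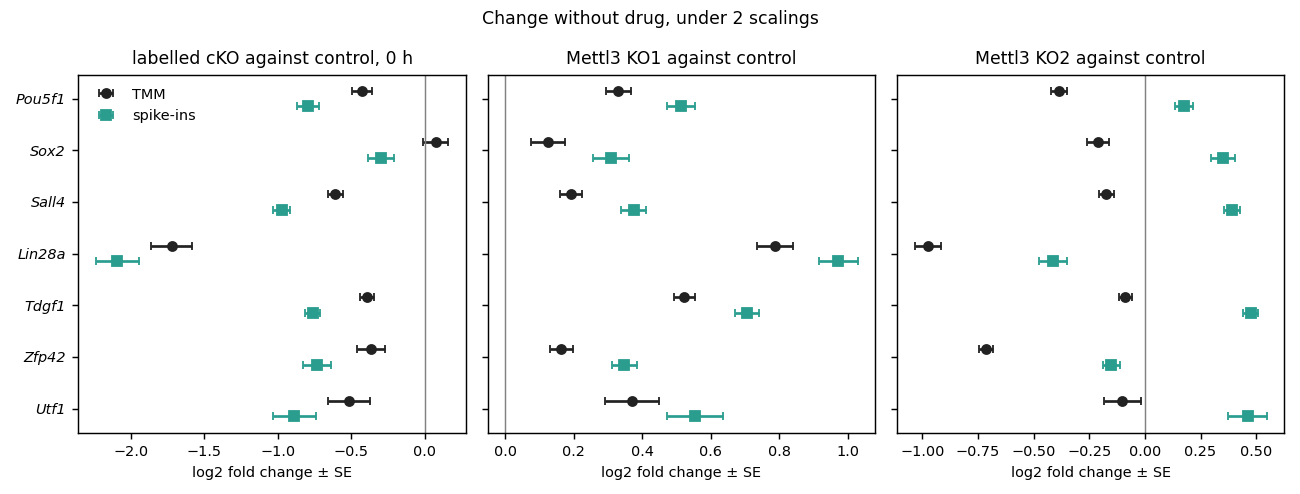
Log2 fold change of each gene without drug (horizontal axis, ± 1 SE) in cells labelled cKO, in KO1 and in KO2, each against its own control group. Black circles are TMM values and green squares are spike-in values, with 2 libraries per group. Lin28a is the leftmost gene in the cells labelled cKO (-1.72 with TMM) and in KO2 (-0.98) and the rightmost in KO1 (0.79).

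Placed on 1 scale over the 18 libraries, the order of the 9 groups differed between the genes. Pou5f1 was highest in cells labelled cKO at 3 h (mean 486 CPM) and lowest in these cells at 0 h (174 CPM), where it overlapped KO2 (178 CPM). Sox2 was highest in both groups at 0 h, which overlapped (130 and 126 CPM), and lowest in control at 6 h (32.3 CPM). Lin28a was highest in KO1 (109 CPM), with the Mettl3 control next (62.3 CPM), and the 3 groups labelled Ythdc1 cKO were lowest, without overlap, at 16.9, 13.7 and 10.4 CPM. Zfp42 was higher in each Mettl3 group (252 to 464 CPM) than in every Ythdc1 group (22.0 to 59.2 CPM). The labels do not say whether both experiments used cells of 1 parent line, so the cells and the experiment cannot be told apart in this gap.

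Zfp42 also has a processed copy, Zfp42-ps1 (chr15:93679160-93679649), which was read in the Mettl3 libraries alone. It held 654 to 1611 reads in these 6 libraries, 8.30% to 11.3% of the Zfp42 reads. In the 12 Ythdc1 libraries it held 0 reads beside 5220 Zfp42 reads, which allows a share of up to 0.0575% (3 reads taken as the upper 95% limit of a count of 0, which covers counting error only and treats reads as independent molecules). Annotated RNAs on the opposite strand cover 14.1% of the exon bases of Pou5f1 (Gm19553), 9.50% of Sall4 (Gm14261) and 5.86% of Lin28a (Gm13061), and reads of the 2 strands cannot be told apart because no source used here gives the strand setting of the counting. Sox2 lies within the span of Sox2ot and shares 0 exon bases with it.

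The wider pluripotency network, taken as 31 further genes, was read beside the 7. In cells labelled cKO at 0 h, 6 rose and 13 fell, or 19.4% and 41.9% of the list beside 13.5% and 15.8% of all genes, with a median of -0.01 beside 0.01. Among them Dppa3, a maternal-effect factor that protects DNA methylation, was lower, with a log2 difference of -2.03 (SE 0.21, adjusted p = 8.19e-10), as were Mycn, a MYC-family growth regulator, at -1.16 (SE 0.11, adjusted p = 7.28e-11) and Trim28, a corepressor of retroelements, at -0.53 (SE 0.050, adjusted p = 1.09e-09). With spike-in scaling 1 rose and 21 fell, where 4.41% of all genes rose and 42.3% fell. Over 6 h in control cells 7 rose and 17 fell, or 22.6% and 54.8% beside 33.1% and 31.7% of all genes (2 and 28 with spike-in scaling, beside 7.33% and 63.0%), among them Fgf4 (-2.97) and Klf2 (-2.35), while Dppa5a rose (1.83, or 0.91 with spike-in scaling). Fgf4, an embryonic growth factor gene that OCT4 and SOX2 are known to activate, was also the gene of this list with the smallest p for a difference in the 6 h change between cells labelled cKO and control, of 1.30 (SE 0.10, adjusted p = 3.52e-12).

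In the Mettl3 lines the same 31 genes split as 20 higher and 6 lower in KO1 (median 0.26) and 4 higher and 17 lower in KO2 (median -0.10). These are 64.5% and 19.4% of the list in KO1, beside 23.9% and 22.2% of all genes, and 12.9% and 54.8% in KO2, beside 24.4% and 26.4%. Tfcp2l1, a naive-state transcription factor gene, was higher in both, by 1.00 in KO1 and 0.71 in KO2. Myc was higher by 2.22 in KO1, and Sall1, a relative of Sall4, was lower in KO2 (-1.44, or -0.88 with spike-in scaling). KO2 against KO1 gave 2 higher and 25 lower with a median of -0.52, beside 21.6% and 24.5% of all genes, or 11 higher and 15 lower with spike-in scaling, beside 48.1% and 7.63%. In KO2 against control that scaling gave 21 higher and 7 lower, beside 56.7% and 6.69% of all genes.

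Of 22 genes around LIN28 and let-7, 1 rose and 9 fell in cells labelled cKO at 0 h, or 0 and 18 with spike-in scaling. With TMM these are 4.55% and 40.9% of the list, beside 13.5% and 15.8% of all genes, and with spike-in scaling 4.41% of all genes rose and 42.3% fell. Their median log2 difference with TMM was -0.13. Igf2bp3, a known let-7 target, was lower (-0.54, SE 0.070, adjusted p = 1.44e-07), and the terminal uridylyltransferase gene Tut7 was higher by 0.52, or by 0.15 without passing the test under spike-in scaling (adjusted p = 0.109). In KO1 10 rose and 4 fell, or 18 and 1 with spike-in scaling, and in KO2 5 rose and 10 fell, or 16 and 4. Over all genes the shares higher and lower were 23.9% and 22.2% in KO1 (34.8% and 13.7% with spike-in scaling) and 24.4% and 26.4% in KO2 (56.7% and 6.69%). The medians with TMM were 0.14 in KO1 and -0.06 in KO2. Hmga2, a chromatin protein gene and let-7 target, was higher by 2.58 in KO2 (SE 0.067, adjusted p = 8.98e-49), where Hmga1 was lower (-1.08), while Igf2bp2 was higher in KO1 by 0.81 and in KO2 by 1.74. Lin28b, the paralog of Lin28a, differed in its 6 h change by 0.91 between cells labelled cKO and control (SE 0.18, adjusted p = 0.000297).

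Of 17 genes of NODAL signalling that could be tested, 3 rose and 3 fell in cells labelled cKO at 0 h, or 1 and 10 with spike-in scaling. With TMM this is 17.6% each way, near the 13.5% and 15.8% of all genes, and their median log2 difference with TMM was -0.06. Nodal itself, the ligand for which CRIPTO is coreceptor, was higher by 0.97 (SE 0.067, adjusted p = 3.45e-14), while Lefty2, an inhibitor of NODAL, was lower (-1.18), as was the receptor gene Acvr2b (-1.15). Nodal fell by 3.53 over 6 h in control cells, where Tdgf1 changed by 0.42, or -0.50 with spike-in scaling. In the Mettl3 lines 9 rose and 6 fell in KO1 (11 and 0 with spike-in scaling), and 10 rose and 4 fell in KO2 (17 and 0). With TMM these are 52.9% and 35.3% of the list in KO1, beside 23.9% and 22.2% of all genes, and 58.8% and 23.5% in KO2, beside 24.4% and 26.4%, while with spike-in scaling 34.8% of all genes were higher in KO1 and 56.7% in KO2. The medians with TMM were 0.24 and 0.20. Lefty2 was higher in both, by 2.00 in KO1 and 1.24 in KO2.

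Among 29 genes for proteins known to bind OCT4 or SOX2, 4 rose and 17 fell in cells labelled cKO at 0 h (1 and 26 with spike-in scaling). With TMM these are 13.8% and 58.6% of the list, beside 13.5% and 15.8% of all genes. Hdac1 (-0.55) and Mta1 (-0.83), both of the NuRD deacetylase complex, were lower. Ctr9 was higher, by 0.56, or 0.19 with spike-in scaling. In KO1 19 rose and 4 fell, beside 23.9% and 22.2% of all genes, and in KO2 7 rose and 12 fell, beside 24.4% and 26.4%, which became 28 and 0 with spike-in scaling, beside 56.7% and 6.69%. The medians with TMM were -0.18 at 0 h in cells labelled cKO, 0.16 in KO1 and -0.07 in KO2. Chd4, the NuRD remodeller, was higher by 1.60 over 6 h in control cells (0.68 with spike-in scaling), with a smaller change in cells labelled cKO (difference -0.66, SE 0.058, adjusted p = 1.21e-10). Of 13 tested paralogs of the 7 genes, 1 rose and 3 fell at 0 h in cells labelled cKO (0 and 5 with spike-in scaling), which with TMM is 7.69% and 23.1% of them beside 13.5% and 15.8% of all genes, and the gene that rose was Pou2f1 (0.46, or 0.09 without passing the test under spike-in scaling). Pou2f1 was also higher in KO1 by 0.81 and in KO2 by 0.89.

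By the Pearson correlation of log2 CPM over the 18 libraries, among 9398 genes with a mean of at least 10 CPM, the genes most like Sox2 were Pcf11 (r = 0.978), Tmem39a and Kat6b. Sall4 was most like Cnot10 (r = 0.978), Tdgf1 most like Hdac1 (r = 0.974), Zfp42 most like Tdg (r = 0.989), Lin28a most like Nup50 (r = 0.958), Utf1 most like Tfpt (r = 0.947) and Pou5f1 most like Abcf2 (r = 0.903). The libraries share their experiment and drug time, so these values only describe likeness of pattern. Among the 7 genes, Pou5f1 was nearest to Tdgf1 (r = 0.86) and farthest from its partner Sox2 (r = -0.78). Lin28a was nearest to Utf1 (r = 0.79) and Sall4 to Tdgf1 (r = 0.77).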

How the data were processed

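The authors deposited HTSeq read counts per gene for nuclear RNA of 18 libraries, with no normalization. The submitters' processing notes name CASAVA, Trimmomatic 0.38, HISAT2 2.1.0, HTSeq and mm10, and the strand setting is not given in the sources used here. The deposited table of all libraries and the files of single libraries agree in every cell (0 differences). The labels' protocols state that 0.1 µl of ERCC spike-in RNA was added to each sample and that a stranded total RNA kit was used.

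The 12 Ythdc1 libraries (17900 genes tested) and the 6 Mettl3 libraries (21802 genes) were fitted separately in edgeR 4.0.16, with TMM scaling, a coefficient for each group, filterByExpr at its default (minimum count 10) and two-sided robust quasi-likelihood F tests. Benjamini-Hochberg adjustment ran over every gene in a fit, and an adjusted p below 0.05 was a call. Differences in change are interaction terms. The fit was tested on simulated data. The 7 genes and the 5 related gene lists were chosen with earlier results of these data known. Besides the 7 genes and the targeted genes, the text names up to 3 called genes by smallest p from each list in 5 of the comparisons, and for each of the 7 genes the most alike genes by correlation. Positions and symbols come from GENCODE M21. The alternatives tried were DESeq2 1.42.0 size factors and its Wald test, library size, spike-in scaling, other filters, a replicate block, other sets of libraries and each library left out in turn.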

Additional observations from a re-analysis of the deposited data

Results flagged for a closer look

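In 15 instances the effect on 1 of the 7 genes differed between groups by a test of the difference itself (edgeR, adjusted over all genes). Over all genes, 19.4% were called for the difference at 3 h, 19.1% for that at 6 h and 46.1% for KO2 against KO1. The change over 3 h of actinomycin D, as cells labelled cKO minus control on the log2 scale, differed by 1.13 for Pou5f1, -0.44 for Sox2, 0.52 for Tdgf1 and -0.95 for Utf1. Over 6 h it differed by -0.30 for Pou5f1, 0.67 for Sox2, -0.25 for Sall4 and 0.27 for Tdgf1. The 3 h call for Sox2 and the 6 h calls for Pou5f1, Sox2 and Sall4 were each lost in some fits that left out 1 library. Scaling by library size also lost the 6 h calls for Pou5f1 (-0.15, adjusted p = 0.269) and Sall4 (-0.10, adjusted p = 0.324). With TMM scaling Pou5f1 and Sox2 had differences of opposite sign at the 2 times; with spike-in scaling this held for Pou5f1 (3.49 and -0.35) and not for Sox2 (1.92 and 0.61).

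Between the Mettl3 lines, each against the same control, KO2 minus KO1 was -1.76 for Lin28a, -0.88 for Zfp42, -0.72 for Pou5f1, -0.61 for Tdgf1, -0.47 for Utf1, -0.36 for Sall4 and -0.34 for Sox2. With spike-in scaling Sox2 (0.04, adjusted p = 0.496), Sall4 (0.02, adjusted p = 0.735) and Utf1 (-0.09, adjusted p = 0.348) did not pass the test.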

How the results depend on the processing

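With spike-in scaling 38 of 70 values of the 7 genes kept direction and call, 27 changed sign, 4 gained a call and 1 lost it. At 0 h Sox2 became -0.30 in cells labelled cKO. In control, Pou5f1, Sall4, Lin28a, Tdgf1 and Utf1 became -0.20, -0.22, -0.51, -0.15 and -0.52 at 3 h, and the first 4 became -0.10, -0.35, -0.78 and -0.50 at 6 h. In cells labelled cKO, Sox2, Zfp42 and Utf1 became 0.12, 1.42 and 0.89 at 3 h, and Pou5f1, Sall4, Lin28a and Tdgf1 became -0.45, -0.65, -0.34 and -0.28 at 6 h. The differences in change at 3 h became 1.92 for Sox2, 2.33 for Sall4 and 1.41 for Utf1. There 7 genes were called higher, beside 89.4% of all genes. In KO2, Pou5f1, Sox2, Sall4, Tdgf1 and Utf1 became 0.18, 0.35, 0.39, 0.48 and 0.46. Against KO1, Sox2 and Sall4 became 0.044 and 0.016, with 4 genes called lower, beside 7.63% of all genes lower and 48.1% higher. Without the 2 libraries labelled cKO at 3 h, a setting chosen after seeing the data, spike-in values at 0 h and 6 h were -0.30 for Sox2, then -0.10, -0.35, -0.78 and -0.50 in control and -0.45, -0.65, -0.34 and -0.28 in cells labelled cKO, for the same genes.

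The other changes of sign were in values near 0 that had not passed the test. Lin28a and Utf1 in control at 3 h became -0.054 and -0.058 with DESeq2 size factors, -0.053 and -0.058 with its Wald test, -0.023 and -0.028 with library size, -0.065 and -0.070 with 50 reads in 2 libraries and -0.036 and -0.040 with only the compared libraries. The Zfp42 difference at 6 h became 0.017 with DESeq2 size factors, 0.018 with its Wald test, 0.13 with library size, 0.13 with no filter, 0.069 in 1 fit of 18 libraries and 0.035 with only the compared libraries. The Sall4 difference at 3 h became 0.0084 with no filter and 0.0045 with only the compared libraries. Lin28a in control at 6 h became -0.055 with library size, and Utf1 in cells labelled cKO at 6 h became 0.040 with no filter.

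With each library left out in turn, 304 of 336 values kept direction and call. Ranges that crossed 0 were -0.028 to 0.16 for Sox2 in cells labelled cKO at 0 h, -0.0022 to 0.029 for Lin28a and -0.12 to 0.12 for Utf1 in control at 3 h, -0.047 to 0.32 for Lin28a in control at 6 h, -0.072 to 0.019 for the Sall4 difference at 3 h and -0.072 to 0.058 for the Zfp42 difference at 6 h. The number of genes called for the difference at 6 h ran from 2 to 5, and 2 were left without either library labelled cKO at 6 h, without the first control library at 0 h or without the second at 6 h. The cause was not tested. Deviations of same-numbered libraries correlated at -0.01 to 0.24 (Ythdc1) and -0.07 to 0.04 (Mettl3). Counting noise weakens such correlations, so they cannot tell whether equal replicate numbers mark paired libraries. With a replicate block 69 of 70 values kept direction and call, and the Zfp42 difference at 6 h became 7.11e-05. Depth limits Lin28a and Utf1 most, at 79 and 74 reads in the smallest library.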
